A study of Mus musculus with 1298 samples.

Results

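Muscle progenitors of the Pax7 lineage at E12.5 were described here from 2 single-cell tables of the same lineage tracing. They are the E12.5 cells whose highest panel score was that of the muscle panel (*Msc*, *Cdh15*, *Myf5* and *Capn6*) and was at least 0.7. A panel score is the mean over 4 genes of log2(1 + counts per 10000 counts of the cell), and 9 such panels, each for another cell type, were compared in every cell. The rule found 75 cells, among 1331 cells at E12.5 and 3916 single cells in all. Of these, 31 came from the 10x library and 44 from Smart-seq2 plates. They are called muscle-panel cells below.

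All embryos carried Pax7-CreER and R26R-stop-EYFP, and tamoxifen was given at E9.5 at 75 µg per g. A cell that expressed *Pax7* around that time keeps YFP whatever it becomes, in the spinal cord as well as in the trunk mesoderm. YFP+ cells were sorted on 3 days, E12.5, E14.5 and later E16.5, from trunks without limbs, viscera and head, and each day was measured on 10x and with Smart-seq2. Embryos were pooled before sorting and the labels name none of them, so 1 platform on 1 day is 1 pool. The 6 pools are the samples of the comparison of days. A further comparison, with cells of the neuron panel, used 8 sums by class from the E12.5 and E14.5 pools. The E14.5 and older tissue was also treated with Dispase, a difference that cannot be told apart from the day.

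Skeletal muscle of the trunk forms from the dermomyotome, an epithelium in which *Pax3* and *Pax7* mark cells that can still divide. Progenitors that enter the muscle programme switch on *Myf5* and *Myod1*, and *Myog* marks the step to a myocyte that leaves the cell cycle and builds sarcomeres. An embryonic wave lays down the primary fibres and a later fetal wave the secondary ones, and the 2 waves are known to differ in *Pax3*, *Pax7*, *Nfix* and basement membrane genes.

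The members held little depth on 10x and much more on Smart-seq2. The 31 cells on 10x had a median of 2138 UMIs (824 to 9431) and 935 genes. The 44 cells on Smart-seq2 had a median of 232884 counts and 6602.5 genes. The muscle-panel cells of the later days were deeper in 3 of 4 pools, at medians of 8081 and 1751 UMIs and of 751621 and 883576 counts on the later days in order. No E12.5 cell had over 8% mitochondrial counts. Scrublet, which was run on 10x alone, called none of the 31 members there a doublet. None of these 31 shared a barcode with another 10x library, although 3 barcodes were shared between libraries in all.

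The panel genes chose the cells, so their values describe the rule. On Smart-seq2 *Capn6*, which encodes a calpain without proteolytic activity, had a count in all 44 members, and *Cdh15*, the M-cadherin gene, in 39. *Myf5* was found in 33 of these cells and *Msc*, which encodes a repressor of the same basic helix-loop-helix family, in 30. All 4 genes were present in 23 cells, 3 in 14, 2 in 5 and 1 in 2, and scores ran from 0.872 to 3.23 around a median of 2.11. On 10x no member held all 4 genes. There, 15 members held 2 of them and 12 held 1, and for 5 cells the whole score came from 1 UMI. The 3 10x members nearest the limit scored 0.711, 0.727 and 0.73 and the 3 nearest cells below it 0.699, 0.691 and 0.686, with 10 cells below it that would otherwise have been members. On Smart-seq2 the lowest member stood at 0.872 and the highest of 4 such cells below the limit at 0.668. A further 16 cells on 10x tied with another panel and were left out.

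By coordinates of GRCm38 in GENCODE vM21, *Msc* lies at chr1:14753346-14755992, *Cdh15* at chr8:122847966-122867397, *Myf5* at chr10:107482908-107486134 and *Capn6* at chrX:143802231-143827414, and all 4 are protein-coding. *Myf6*, another muscle regulator, is the neighbour of *Myf5* at chr10:107492853-107494737. *Myf6* had no UMI in the 10x members and a count in 3 of 44 Smart-seq2 members.

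Genes that the rule did not use were read to check the label. *Itm2a*, a membrane protein of developing muscle and cartilage, had a count in 29 of 31 members on 10x (93.5%, exact binomial 95% interval 78.6 to 99.2) against 17.2% of neuron-panel cells, and in 44 of 44 on Smart-seq2 against 7.07%. On Smart-seq2 *Myod1* was found in 54.5% of members (38.9 to 69.6) and 0% of neuron-panel cells. *Pax7* was found in 75.0% (59.7 to 86.8) against 10.1%. On 10x *Myod1* had a UMI in 19.4% of members and 2.24% of neuron-panel cells. Neuron-panel cells were the deeper class, with a median of 1.25899e+06 counts. On 10x the *Pax* genes did not mark the members: *Pax7* had a UMI in 9.68% of members and 9.45% of neuron-panel cells, which were deeper at a median of 3170.5 UMIs, and *Pax3* had none in 31 members, which allows up to 11.2% of cells with a UMI. The muscle label rests on *Myod1* on both platforms and on *Pax7* on Smart-seq2. *Itm2a* is not particular to muscle here, since 72.3% of early mesenchymal-panel cells on Smart-seq2 also held a count. Intervals over cells cover counting error only.

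**Figure D1:**
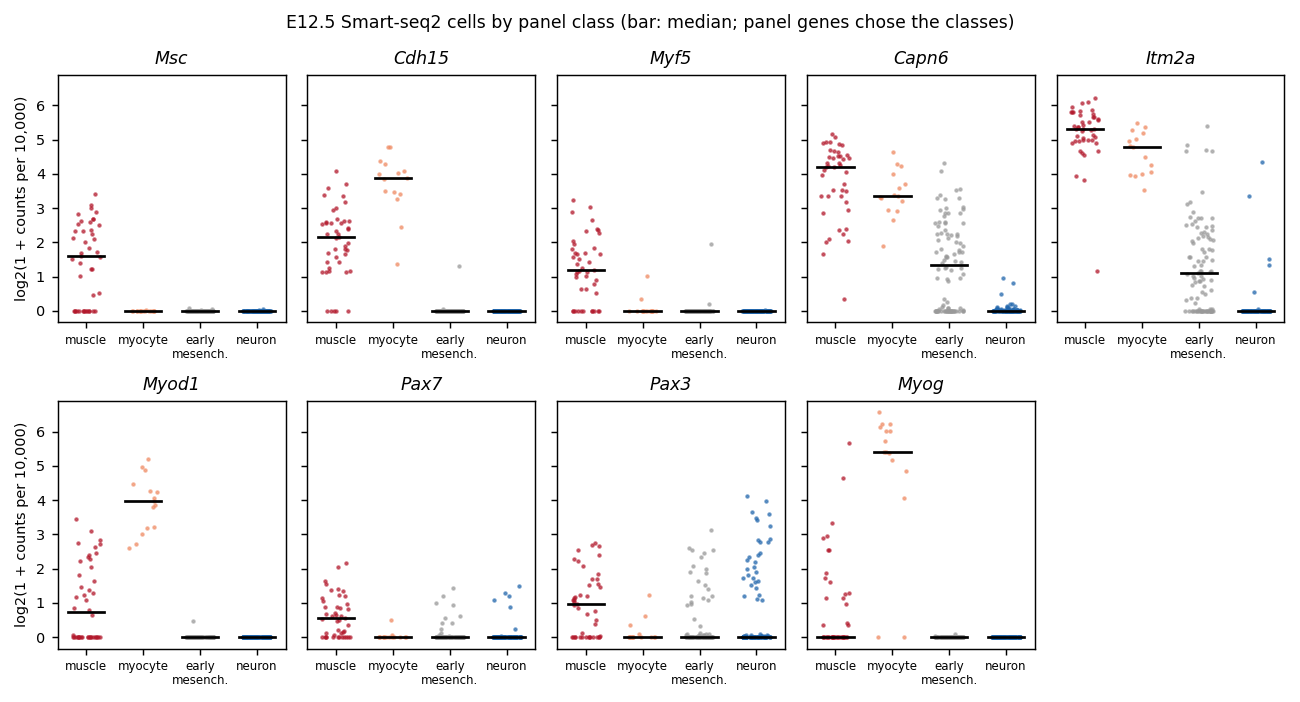
Each point is 1 E12.5 Smart-seq2 cell, grouped by its highest panel (muscle, 44 cells; differentiating myocyte, 15; early mesenchymal, 94; neuron, 99). The y axis is log2(1 + counts per 10000) and bars are medians. *Msc*, *Cdh15*, *Myf5* and *Capn6* chose the muscle class, and *Myog* is a gene of the myocyte panel. *Itm2a* sits at a median of 5.31 in muscle-panel cells, and *Myod1*, *Pax7* and *Pax3* are each at 0 in part of them.

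Muscle-panel cells made up 3.05% of the E12.5 cells on 10x (31 of 1017, interval 2.08 to 4.30) and 14.01% on Smart-seq2 (44 cells, 10.4 to 18.4). On Smart-seq2 the share differed between sequence batches. It was 1.56% in batch 1, 8.43% in batch 2 and 21.6% in batch 5, while neuron-panel cells made up 51.6%, 67.5% and 5.99%. The 10x share fell to 1.67% when a score of at least 1.0 was asked for and rose to 4.62% with tied cells kept. Because the sort and the rule set these shares, they are no estimate of the tissue.

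Few cells gave much of the Smart-seq2 sum. The 8 members of batches 1 and 2 held 14024617 of its 22005408 counts and the 36 members of batch 5 the other 7980790.5. Some genes differed between these parts. *Pax3* stood at 193.7 CPM in batch 5 and 41.1 CPM in batches 1 and 2, *Myod1* at 194.7 and 76.7 and *Myog* at 185.8 and 552. *Itm2a* was nearly level, at 4241 and 4922 CPM. CPM are scaled to the summed counts over the 15147 genes that both platforms measured.

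Within the Smart-seq2 members each of the *Pax* genes was found in most cells, so many cells with both follow from this alone. Whether they went together more often than that was not tested. *Pax3* and *Pax7* both had counts in 25 of 44 cells (56.8%, upper bound of the interval 71.7), *Pax3* without *Pax7* in 6, *Pax7* without *Pax3* in 8 and neither in 5. The bHLH factors were counted in the same way. *Myf5* with *Myod1* was found in 16 cells (36.4%), *Myf5* without *Myod1* in 17 (38.6%), *Myod1* without *Myf5* in 8 (18.2%) and neither in 3. *Myog* had a count in 18 of 44 cells (40.9%), against 1.01% of neuron-panel cells, and 15 of these 18 also held a *Pax3* or *Pax7* count. At this depth a gene without a count may still be expressed.

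Members with a *Myog* count differed in level from those without, as a description of 18 and 26 cells of 1 pool. *Myod1* stood at 270.1 CPM with *Myog* and 27.8 without. *Actc1*, the cardiac actin of early muscle, stood at 1776 and 22.3 CPM, and *Chrna1*, an acetylcholine receptor subunit, at 40.98 and 2.30. *Pax3* was at 107.1 and 90.02 CPM and *Pax7* at 54.6 and 51.5. The panel genes, which chose the cells, differed in direction, with *Myf5* at 107.2 and 344.4 CPM, *Msc* at 226.3 and 353.5, *Cdh15* at 590.4 and 294.5 and *Capn6* at 1637 and 2492. *Mylpf*, a fast myosin light chain, was at 15.01 and 0 CPM, but *Mylpf*, *Chrna1* and *Myog* are genes of the myocyte panel, which had to score below the muscle panel in every member. Of the markers of dividing cells, *Mki67* was at 107.6 and 94.3 CPM, while *Top2a* was at 112.5 CPM without *Myog* and higher with it.

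Next to all other E12.5 cells, the comparison the rule itself made, 15 genes outside the panel were named by the smaller of their ratios on the platforms, and *Itm2a* led them. Its level was 1734 CPM on 10x (exact Poisson interval 1463 to 2040) and 339.3 CPM in the other cells, and 4675 and 272.2 CPM on Smart-seq2. Contractile genes followed. *Tnnt1*, slow troponin T, stood at 550 against 180.2 CPM on 10x and 350.3 against 57.3 on Smart-seq2, and *Acta2*, smooth muscle actin, at 490.3 against 180.9 and was 4.58 times as high on Smart-seq2. Neither marked the members against myocyte-panel cells, where *Tnnt1* was at 1587 and 1272 CPM and *Acta2* at 1537 and 4217.

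The other named genes fall into a few kinds. Glycolytic *Ldha* stood at 741 against 308.3 CPM on 10x and 2470 against 817 on Smart-seq2, and *Pgk1* at 454.4 against 245.2 and 609 against 346.2. The mitochondrial chaperonin genes *Hspe1* and *Hspd1* were 2.32 and 2.69 times as high as in other cells on 10x and 2.10 and 1.76 times on Smart-seq2. Imprinted *Plagl1* and *Peg3*, both zinc finger genes, were 2.13 and 1.78 times as high on 10x and 6.62 and 4.30 times on Smart-seq2. *Peg3* was no higher than in early mesenchymal-panel cells on 10x, at 586 against 726 CPM. Ratios for the nucleolar gene *Npm1*, the histone chaperone gene *Anp32b*, the ribosomal *Rpl22l1*, the nucleotide pyrophosphatase gene *Dctpp1* and the cytoskeletal *Tpm1* and *Myl12a* ran from 1.71 to 2.77. Not all of these genes were higher than in myocyte-panel cells. *Tpm1* was higher there, at 1219 against 849 CPM on 10x and 850 against 707.5 on Smart-seq2. *Pgk1* and *Myl12a* stood at 0.88 and 0.64 times the myocyte-panel level on Smart-seq2. On 10x they stood at 1.15 and 1.03 times. The other genes here were higher in members on both platforms, from 1.04 times (*Npm1*, 10x) to 3.72 times (*Anp32b*, Smart-seq2).

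Against the myocyte-panel cells of the same day, members held more of a few replication and chromatin genes and less of the sarcomere. The rule made this comparison as well, since the myocyte panel (*Myog*, *Mylpf*, *Tnni1* and *Chrna1*) had to score below the muscle panel, so the values are a description. *Pclaf*, a clamp-associated replication factor, stood at 406.6 against 120.6 CPM on 10x and 165.2 against 10.2 on Smart-seq2. *Dek*, a chromatin protein, was at 562 against 285.7 and 146.9 against 24.3, and *Id2*, an inhibitor of bHLH factors, at 538.1 against 165.1 and 314.2 against 79.5. *Cd24a*, *Igfbp5*, *H2afy*, *Hnrnpf* and *Dctpp1* were also higher, by 1.94 to 9.51 times. *Cdkn1a*, the cyclin-dependent kinase inhibitor of cell cycle exit, stood at 12.0 against 559 CPM on 10x and 28.4 against 1091 on Smart-seq2. *Myh3*, embryonic myosin heavy chain, had no UMI in the members against 330.2 CPM in myocyte-panel cells, and 2.32 against 1138 CPM on Smart-seq2. *Acta1*, *Tnnc1*, *Myl1* and *Mef2c* had no UMI in the members either, where 698 to 1200 CPM were found in myocyte-panel cells, and *Myl4* and *Tnnt2* had 1 UMI each.

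**Figure D2:**
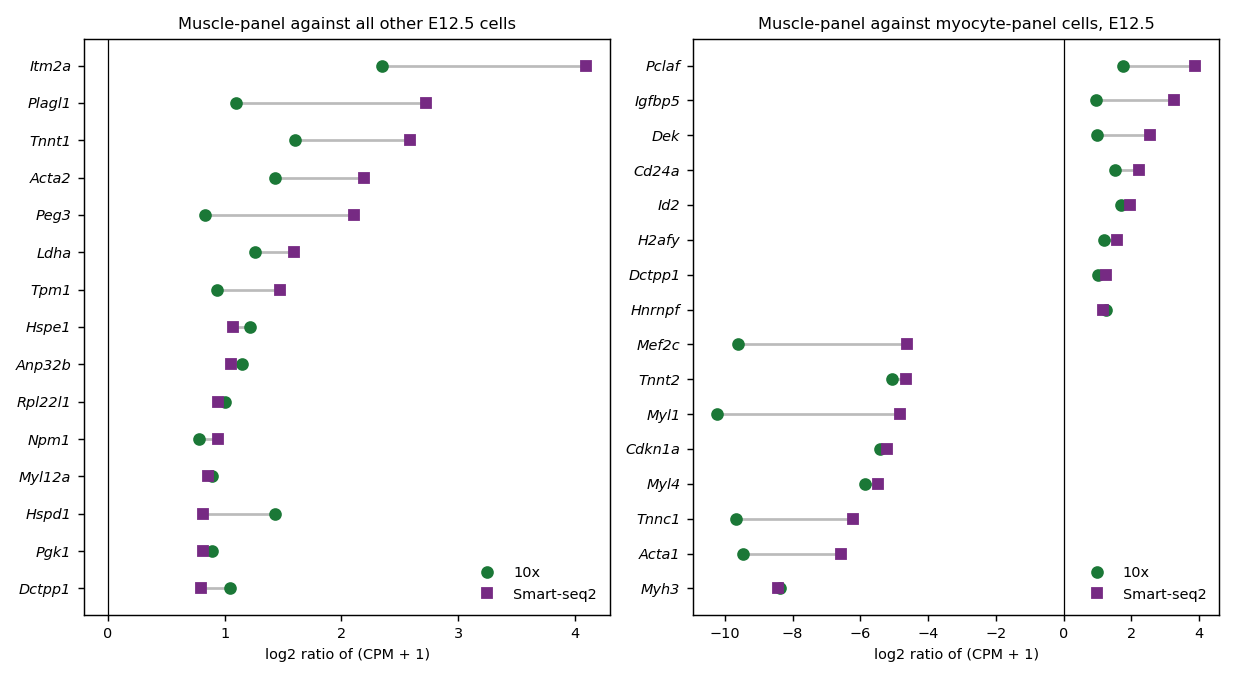
Points are log2 ratios of (CPM + 1) at E12.5 on each platform, without replicates, for the genes named by a fixed rule. In the left panel *Itm2a* leads at 5.10 times on 10x and 17.1 times on Smart-seq2, and in the right panel sarcomere genes and *Cdkn1a* lie left of 0. Genes at 0 in the 10x members, such as *Myl1*, have a ratio that depends on the 1 CPM added.

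Mesenchymal genes were present in part of the members. On Smart-seq2 *Pdgfra*, the receptor gene of mesenchymal progenitors, had a count in 52.3% of members (36.7 to 67.5), 84.04% of early mesenchymal-panel cells and 8.08% of neuron-panel cells. After thinning every cell to 100000 counts the shares were 44.2%, 83.3% and 6.12%. *Twist1* was found in 27.3% of members and 0% of neuron-panel cells. *Prrx1* was found in 63.6% of both members and neuron-panel cells, and in 53.5% and 12.2% after thinning. On 10x neither *Pdgfra* nor *Prrx1* had a UMI in the 31 members, and *Twist1* had one in 4. *Prrx1* is itself a gene of the early mesenchymal panel. Over a list of 17 mesenchyme markers, all 17 were above 0 in the Smart-seq2 E12.5 sum, for 2913 CPM in all, and 11 were above 0 on 10x, for 837.0 CPM. Neuron-panel cells of the same day held 739.1 CPM on Smart-seq2, below the members, and 1395 CPM on 10x, above them. In muscle-panel cells of the later days the sums were 2290 and 2002 CPM on Smart-seq2 and 781 and 1588 CPM on 10x. Of 16 neuron markers, 12 were above 0 on 10x at E12.5, for 310.9 CPM in all against 6169 CPM in neuron-panel cells, and 15 on Smart-seq2, for 171.7 against 7606 CPM.

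The E12.5 members were then set against the muscle-panel cells of the later days. Counts were summed per pool, over at least 31 cells each, and the mean of both later days was set against E12.5 with platform as a term. Of 5052 genes tested with edgeR's quasi-likelihood test, 4.71% passed an adjusted p of 0.05. Of all genes tested 3.35% were called higher later and 1.37%, or 69 genes, higher at E12.5, and the median log2 fold change of all genes was 0.16, or 0.02 under DESeq2's scaling. The test needs an average log2 CPM of at least 5, and with edgeR's own filter alone it called 1300 of 12205 genes, 632 higher later and 668 higher at E12.5 (48.6% of its calls higher later). On simulated counts the limit lowered the share of false calls, which stayed above the level aimed at in part of the draws. With 1 pool per platform and day, the spread between pools of the same kind could not be estimated. These p-values rest on how far the platforms differ on the day effect and on a spread shared across genes. Differences between pools may be technical.

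The calls leaned on the Smart-seq2 E12.5 pool. Without it 3 genes passed (0.0625%), among them *Cd24a* and *Dlk1*, although all but 1 of the 200 called genes that could be tested kept their direction. Without the 10x E12.5 pool 3.18% of genes passed, and without the 10x E16.5 pool 7.82%. With the Smart-seq2 E12.5 cells of batch 5 alone 6.05% passed, and 65.1% of the genes called with all cells were among them. The sequence batches do not overlap between days (1, 2 and 5 at E12.5, 3 and 4 at E14.5, 6 at E16.5), so batch and day cannot be told apart.

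Among genes higher at E12.5 *Sulf2* had the largest log2 fold change. *Sulf2*, which encodes an extracellular heparan sulfate sulfatase, stood at 47.8, 2.42 and 6.43 CPM on 10x and at 217.7, 15.2 and 1.96 CPM on Smart-seq2 on the 3 days in order. Both E12.5 values lay above all later ones of their platform, and the log2 fold change was -5.08 ± 0.49 (SE, 6 pools, adjusted p = 1.08e-06). *Stra6*, the receptor gene for retinol-binding protein, stood at 23.9, 8.07 and 0 CPM on 10x and at 278.9, 76.1 and 3.34 CPM on Smart-seq2 (-3.88 ± 0.42, adjusted p = 3.21e-06). At E14.5 alone *Stra6* was not called (-1.67, adjusted p = 0.0846). *Itga4*, an integrin subunit that binds fibronectin and VCAM1, stood at 95.7, 11.3 and 0 CPM and at 181.5, 28.1 and 9.93 CPM (-3.33 ± 0.41, adjusted p = 1.64e-05).

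Receptors and guidance molecules were among the other genes called. *Erbb3*, a neuregulin receptor of migrating muscle progenitors, stood at 83.7, 18.6 and 0 CPM on 10x and at 256.4, 60.8 and 19.8 CPM on Smart-seq2 (-2.72 ± 0.40, adjusted p = 0.000127). *Efna5*, an ephrin ligand, stood at 119.6, 19.4 and 12.9 CPM and at 150.2, 25.4 and 10.3 CPM (-2.94 ± 0.39, adjusted p = 3.52e-05). *Slit2*, a secreted guidance ligand, had 1 UMI at E12.5 on 10x and stood at 163.6, 21.9 and 13.3 CPM on Smart-seq2 (-2.84 ± 0.47, adjusted p = 0.000427), and its receptor gene *Robo1* fell too (-2.22 ± 0.46, adjusted p = 0.00408). *Slit2* was no longer called without either later Smart-seq2 pool (-2.40 without E14.5 and -2.29 without E16.5), and *Robo1* without the Smart-seq2 E16.5 pool (-1.39, adjusted p = 0.235) and for E14.5 alone (-1.69, adjusted p = 0.109). *Ngfr*, a neurotrophin receptor, stood at 47.8, 12.1 and 6.43 CPM on 10x and at 174.9, 118.9 and 5.58 CPM on Smart-seq2 (-2.73 ± 0.44, adjusted p = 0.000368). *Ngfr* lost its call without the Smart-seq2 E16.5 pool (-1.25, adjusted p = 0.532), for E14.5 alone (-0.74, adjusted p = 0.622) and with batch 5 alone (-1.61, adjusted p = 0.0507).

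*Cd24a*, a small glycoprotein of the cell surface, fell on both platforms, from 562 over 102.6 to 32.1 CPM on 10x and from 455.3 over 127.6 to 38.4 CPM on Smart-seq2 (-2.67 ± 0.33, adjusted p = 1.30e-05). It kept its call without the Smart-seq2 E12.5 pool. The other named genes of this direction were the transcriptional regulator *Mn1* (-3.31), the membrane protein *Tmem119* (-3.13), the monooxygenase-like *Moxd1* (-2.90) and the sialyltransferase *St6galnac3* (-2.68). *Moxd1* was at 481.4 CPM in the E12.5 members on Smart-seq2, against 13.4 CPM in all other E12.5 cells and 0 in neuron-panel cells. Early mesenchymal-panel cells held 58.6 CPM there. On 10x the members stood at 47.8 CPM (4 UMIs, exact Poisson interval 13.0 to 122.5) and early mesenchymal-panel cells at 32.8 CPM. The 10x values thus do not separate these classes.

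*Col15a1* had the largest log2 fold change of the genes higher later. This gene, which encodes collagen XV of basement membranes, had no count in any of the 75 members. It stood at 38.8 and 199.3 CPM on 10x and at 123.5 and 130.5 CPM on Smart-seq2 on the later days. The limit of a count of 0 was taken as 3 UMIs, which covers counting error only. The later 10x levels were 1.08 times this limit at E14.5 and 5.55 times at E16.5, without the counting error of the later values. The exact Poisson interval of the E12.5 count runs up to 44.1 CPM, above the E14.5 level. On 10x the rise was thus seen at E16.5 and not at E14.5. The edgeR day comparison over both platforms gave an adjusted p of 5.17e-07, and *Col15a1* lost its call without the Smart-seq2 E12.5 pool. No fold is given for Smart-seq2, where reads are not independent molecules. *Csgalnact1*, an enzyme of chondroitin sulfate synthesis, had no count in the members either (adjusted p = 5.17e-07).

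*Itga7*, the laminin-binding integrin subunit of muscle, stood at 0, 16.1 and 32.1 CPM on 10x and at 3.04, 140.8 and 378.5 CPM on Smart-seq2 (6.43 ± 0.63, adjusted p = 1.08e-06). On 10x all 3 values lay under the 35.9 CPM that a count of 0 allows at E12.5, so its rise was seen on Smart-seq2. The same holds for *Htra3*, a secreted protease (6.95 ± 0.73), and *Mcam*, an adhesion molecule (4.94 ± 0.58). *Chodl*, the membrane lectin chondrolectin, rose from 12.0 CPM (1 UMI) to 58.1 and 51.4 CPM on 10x and from 1.86 to 216.8 and 435.8 CPM on Smart-seq2 (7.38 ± 0.74, adjusted p = 1.51e-06). *Cd34*, a sialomucin found on adult satellite cells, stood at 0, 11.3 and 57.9 CPM and at 1.73, 107.5 and 99.2 CPM (6.13 ± 0.72, adjusted p = 9.36e-06).

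*Cd44*, the hyaluronan receptor, stood at 0, 52.5 and 83.6 CPM on 10x and at 8.18, 145.9 and 526.6 CPM on Smart-seq2 (5.31 ± 0.58, adjusted p = 3.21e-06). *Cav1*, the coat protein of caveolae, was at 1.86 CPM at E12.5 and still at 11.4 CPM at E14.5 on Smart-seq2, and was highest at E16.5 (5.46 ± 0.78). *Crip2*, a LIM domain protein, climbed on both platforms, from 35.9 over 143.7 to 501.4 CPM and from 10.7 over 234.1 to 941 CPM (5.30 ± 0.56, adjusted p = 2.45e-06). *Emp1*, a membrane protein (5.30 ± 0.56), and *Gas6*, a ligand of the TAM receptors (4.99 ± 0.57), were also higher later, and neither had a UMI at E12.5 on 10x.

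**Figure D3:**
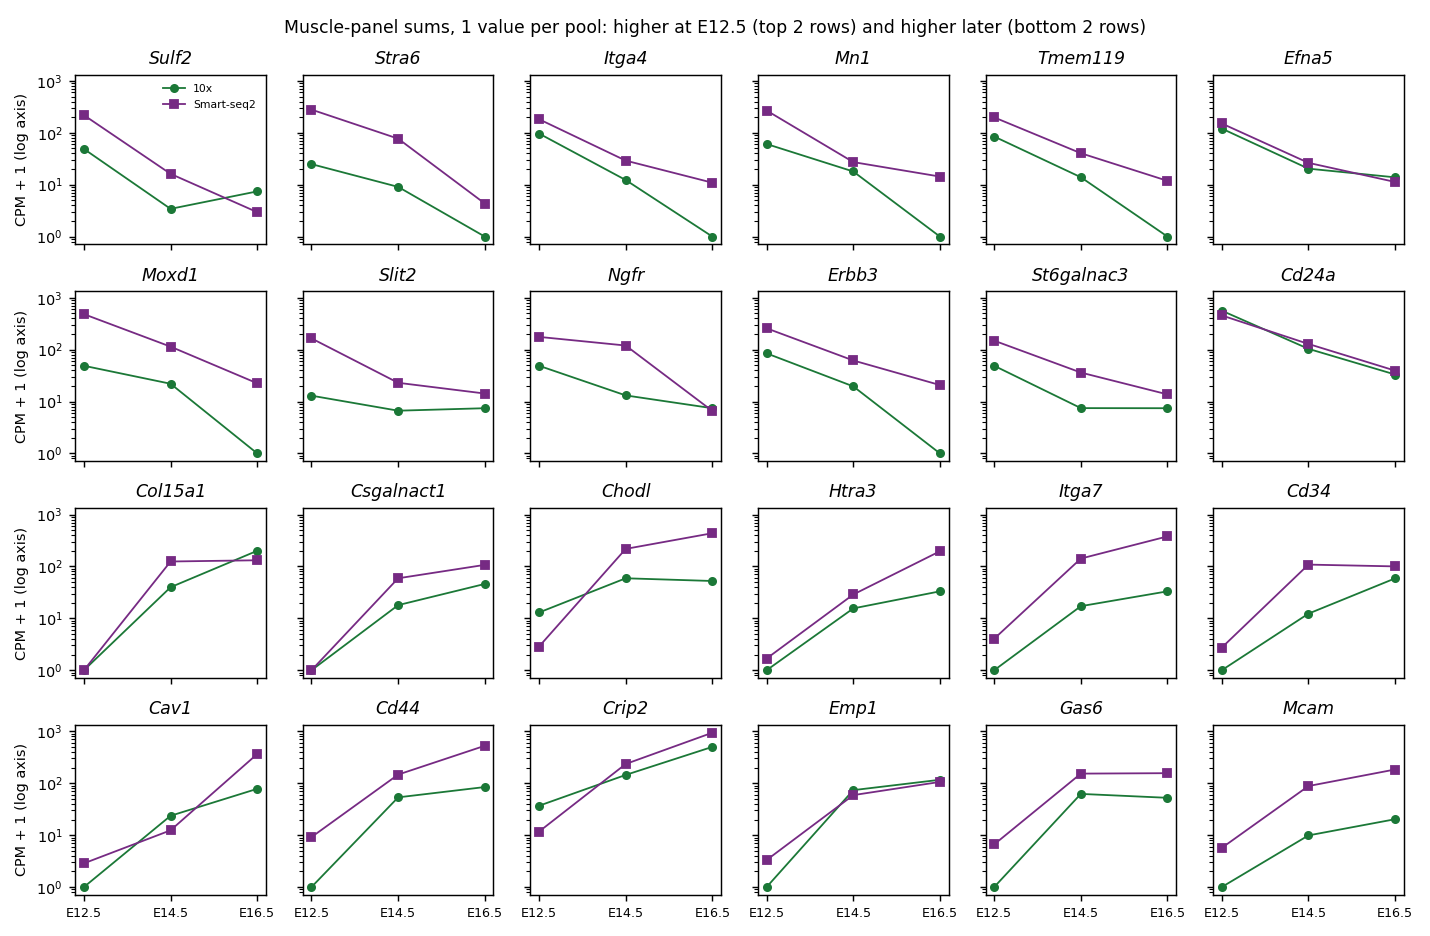
CPM + 1 of the muscle-panel sums on a log axis by day, 1 value per pool (green circles, 10x; purple squares, Smart-seq2), for the 12 genes named in each direction. Genes of the top rows lie highest at E12.5 on both platforms, such as *Cd24a* at 562 and 455.3 CPM, and genes of the bottom rows lowest, such as *Crip2* at 35.9 and 10.7 CPM.

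Most muscle regulators, like most genes, did not pass the test. Of 51 listed genes 27 were tested. Of these 1 was higher later and 2 were higher at E12.5, beside 3.35% and 1.37% of all genes. The median log2 fold change was -0.04 beside 0.16 for all genes. *Myod1* stood at 131.5, 178.5 and 199.3 CPM on 10x and at 119.5, 338.7 and 600 CPM on Smart-seq2 (1.71 ± 0.41, adjusted p = 0.0156). It lost its call without the 10x E12.5 pool (2.17, adjusted p = 0.119), after thinning to equal depth (0.94, adjusted p = 0.175) and for E14.5 alone (1.37, adjusted p = 0.146). *Eya1*, a transcriptional coactivator, fell (-1.75 ± 0.47, adjusted p = 0.0315) and lost its call with batch 5 alone (-1.38, adjusted p = 0.119), under DESeq2 (-1.75, adjusted p = 0.268) and after thinning (-1.29, adjusted p = 0.101), and at -0.67 without the Smart-seq2 E14.5 pool.

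Of the panel genes *Myf5* had a log2 fold change of -0.32 ± 0.36 and *Msc* of 1.04 ± 0.35 (adjusted p = 0.107), and since they chose the cells on every day these are descriptions. *Cdh15* was at 0.80 ± 0.36 and *Capn6* at 0.65 ± 0.28. *Msc* would pass with batch 5 alone (1.43, adjusted p = 0.0256) and after thinning (1.26, adjusted p = 0.0136). *Pax7* was at -0.02 ± 0.39 and *Myog* at 0.75 ± 0.37, neither called, and *Myog* would pass with batch 5 alone (1.70, adjusted p = 0.0116). *Myog* is a gene of the myocyte panel, which had to score below the muscle panel in every cell, so its values are descriptions too. *Pax3* was too low to be tested and stood at 0, 9.69 and 0 CPM on 10x and at 96.5, 16.8 and 6.57 CPM on Smart-seq2.

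Shares of Smart-seq2 cells show the same genes per cell, as descriptions of 1 pool a day. *Pax3* had a count in 70.5% of members at E12.5 (54.8 to 83.2) and in 40.7% and 22.2% of the muscle-panel cells of the later days. After thinning the 3 shares were 69.8%, 31.5% and 14.8%. Neuron-panel cells held it in 56.6% at E12.5, since *Pax3* is also a gene of the dorsal spinal cord. *Pax7* had a count in 75.0%, 88.9% and 63.5% of cells. *Pax3* together with *Pax7* fell from 56.8% over 40.7% to 17.5% of cells. *Myod1* went from 54.5% to 81.5% and 82.5%, and *Myf5* with *Myod1* from 36.4% to 57.4% and 66.7%. *Myog* was found in 40.9%, 31.5% and 34.9%, with intervals that overlap. *Pdgfra* went from 52.3% to 11.1% and 4.76% and *Twist1* from 27.3% to 3.70% and 0%. *Erbb3* fell from 81.8% over 27 of 54 cells to 25.4% and *Stra6* from 93.2% over 35.2% to 7.94%, while *Col15a1* went from 0% to 64.8% and 93.7% and *Itga7* from 40.9% to 74.1% and 96.8%. The *Itga7* share at E12.5 was below the 57.6% of the deeper neuron-panel cells, and the levels were 3.03 and 1.98 CPM.

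**Figure D4:**
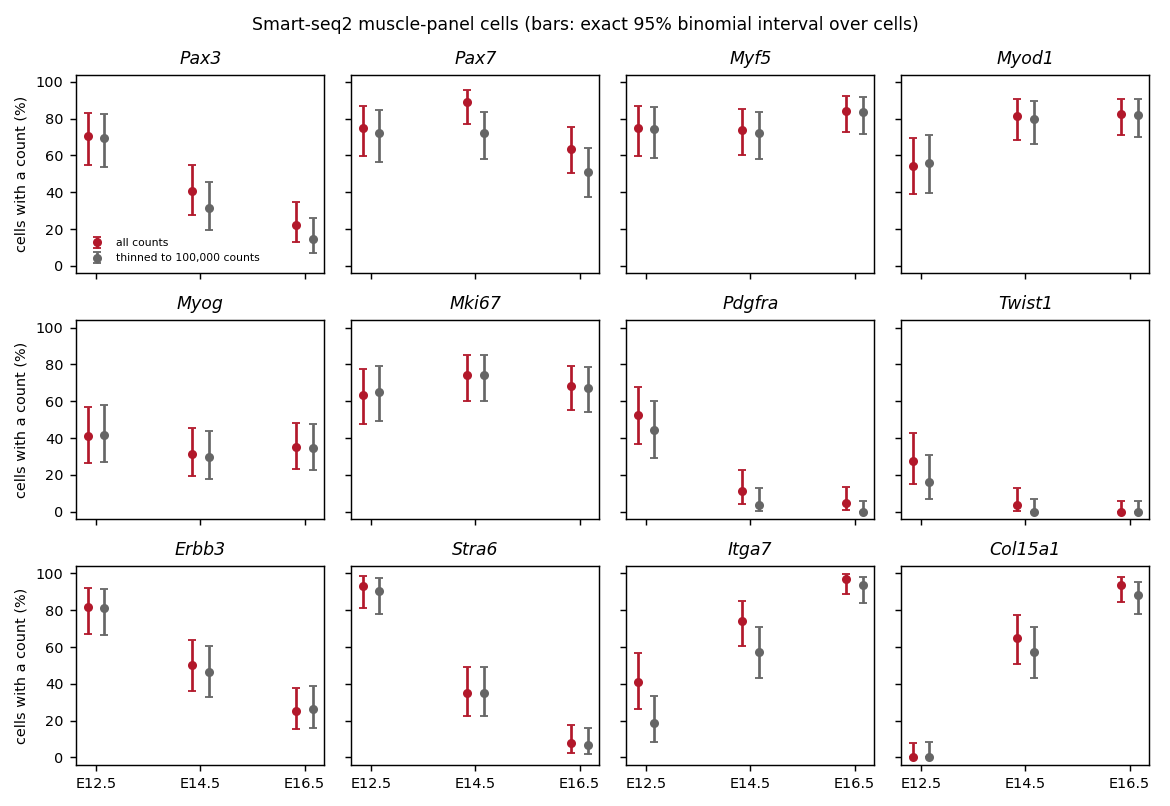
Share of Smart-seq2 muscle-panel cells with a count of each gene by day (44, 54 and 63 cells), in all counts (red) and after thinning to 100000 counts per cell (grey), with exact 95% binomial intervals over cells of 1 pool. *Pax3*, *Pdgfra*, *Twist1*, *Erbb3* and *Stra6* go down from E12.5 to E16.5, *Myod1*, *Itga7* and *Col15a1* go up, and the intervals of *Myog* and *Mki67* overlap on all days.

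Of 15 tested genes of the fetal muscle programme 7 were higher later and 0 at E12.5, beside 3.35% and 1.37% of all genes, and 8 were not called. Their median log2 fold change was 1.04, with values down to -1.29 among those not called. Beside *Col15a1*, *Itga7* and *Cd34* they were *Nfic*, *Vcam1* (3.60 ± 0.57), the *Tgfbr2* receptor gene (2.37 ± 0.56) and *Myh8*, perinatal myosin heavy chain (3.15 ± 0.59). On 10x *Vcam1*, *Tgfbr2* and *Myh8*, like *Itga7*, stayed under the 35.9 CPM that a count of 0 allows at E12.5. Their rise was thus seen on Smart-seq2, and *Vcam1* lost its call without the Smart-seq2 E16.5 pool (2.60). With batch 5 alone 9 of 15 were called, and without the Smart-seq2 E12.5 pool 0 of 14. Matrix and basement membrane genes had 11 of 31 called higher later and 0 lower, at a median of 1.06. Among the 11 is *Postn*, a gene of the late mesenchymal panel, which had to score below the muscle panel in every cell. *Col6a2* stood at 12.0, 46.8 and 102.8 CPM on 10x and at 33.5, 372.3 and 411.5 CPM on Smart-seq2 (3.68 ± 0.50, adjusted p = 5.41e-05), and *Col6a1* (2.46 ± 0.46) and the laminin subunit genes *Lamc1* (2.32 ± 0.55), *Lama4* and *Lama5* were also called. This count was 5 without the 10x E12.5 pool, 6 without the Smart-seq2 E14.5 pool and 0 without the Smart-seq2 E12.5 pool.

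Of 31 adhesion and guidance genes 6 were higher later, 4 were higher at E12.5 and 21 were not called, beside 3.35% and 1.37% of all genes. The 4 were *Itga4*, *Efna5*, *Slit2* and *Robo1*, described above, and *Itga7*, *Cd34*, *Chodl* and *Vcam1* were among the 6. Contractile genes had 4 of 18 higher later and 1 higher at E12.5. *Actc1* stood at 59.8, 327.8 and 392.1 CPM on 10x and at 686, 1342 and 2484 CPM on Smart-seq2 (1.96 ± 0.37, adjusted p = 0.00186). *Cryab*, a small heat shock protein of muscle (4.23 ± 0.54), *Myh8* and *Chrna1* (2.31 ± 0.54) rose as well. *Chrna1* is a gene of the myocyte panel, which had to score below the muscle panel in every cell. Its value and its place among the 4 are therefore descriptions. On 10x *Myh8* and *Chrna1* stayed under the 35.9 CPM that a count of 0 allows at E12.5. *Atp2a1*, the calcium pump of fast fibres, was higher at E12.5 (-1.93 ± 0.47), but it had no UMI at E12.5 on 10x and turned to 3.44 (adjusted p = 0.828) without the Smart-seq2 E14.5 pool. *Atp2a1* was not called by DESeq2 (adjusted p = 0.314) or with batch 5 alone (-1.07, adjusted p = 0.328), where 8 of 17 contractile genes were higher later and 0 lower.

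Of 13 imprinted genes that bear on growth 2 were higher later, 1 was higher at E12.5 and 10 were not called, beside the same shares of all genes. *Dlk1*, a transmembrane protein related to Notch ligands, stood at 131.5, 1359 and 2610 CPM on 10x and at 46.6, 486.2 and 287.6 CPM on Smart-seq2 (3.58 ± 0.40, adjusted p = 5.22e-06), and kept its call without the Smart-seq2 E12.5 pool. *Cdkn1c*, a cyclin-dependent kinase inhibitor, stood at 2332, 5837 and 3805 CPM and at 948, 2163 and 1309 CPM (1.19 ± 0.25, adjusted p = 0.00519), highest at E14.5 on both platforms. *Nnat*, neuronatin, fell from 1016 over 338.3 to 115.7 CPM and from 1394 over 490.1 to 303.5 CPM (-1.76 ± 0.30, adjusted p = 0.000635). Without the 10x E12.5 pool *Cdkn1c* (1.06, adjusted p = 0.522) and *Nnat* (-1.60, adjusted p = 0.261) lost their calls. Among let-7 and fetal RNA-binding genes 2 of 10 were higher at E12.5, the mRNA-binding *Igf2bp1* (-1.42 ± 0.35, adjusted p = 0.018) and the DNA methyltransferase *Dnmt3a* (-1.34 ± 0.37, adjusted p = 0.0375). Both lost their calls without the 10x E12.5 pool (adjusted p = 0.405 and 0.421), and *Dnmt3a* with batch 5 alone (adjusted p = 0.104).

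In each of 3 signalling lists 1 or 2 genes were called, beside 4.71% of all genes tested. Of 12 Notch pathway genes 1 was higher later, *Dlk1* again. Of 10 growth factor receptor and response genes *Erbb3* was higher at E12.5 and *Etv5*, a target of fibroblast growth factor signals, higher later (1.87 ± 0.48, adjusted p = 0.0228, and 1.75 with adjusted p = 0.204 without the 10x E12.5 pool). Of 13 Bmp, Tgf-beta and Wnt genes *Tgfbr2* was higher later and *Tcf7l2*, a transcription factor of Wnt signals, higher at E12.5 (-1.47 ± 0.37, adjusted p = 0.0217). *Tcf7l2* was at -0.59 (adjusted p = 0.515) with batch 5 alone.

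Higher levels of G2/M genes on the later days did not hold across settings. In the list of G2/M genes 7 of 26 were higher later, at a median of 1.03, among them *Nusap1* (2.34 ± 0.50), *Aurkb* (2.23 ± 0.52), *Cdk1* (1.78 ± 0.43) and *Ccna2* (1.52 ± 0.41). With batch 5 alone 1 of 26 was called, at a median of 0.39, and after thinning 1 of 27, at a median of 0.36. Of 26 S phase genes 2 were higher later, *Ccne1* (1.58 ± 0.36) and *Pcna* (1.40 ± 0.37), beside 3.35% of all genes. Both lost their calls without the 10x E12.5 pool (adjusted p = 0.422 and 0.525), and *Pcna* after thinning (adjusted p = 0.0511), with batch 5 alone (0.0939) and for E14.5 alone (0.0893). *Mki67* had a count in 63.6%, 74.1% and 68.3% of the Smart-seq2 cells of the 3 days and *Top2a* in 72.7%, 77.8% and 69.8%, with intervals that overlap. Cell cycle inhibitors had 2 of 9 higher later, *Cdkn1c* and *Btg2* (2.68 ± 0.44, adjusted p = 0.000495).

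A list of genes known to respond to tissue dissociation moved with the day. Of 19 tested, 11 were higher later and 0 at E12.5, beside 3.35% and 1.37% of all genes. The median of the 19 was 1.63, beside 0.16 for all genes. Among the 11 were *Atf3* (5.10 ± 1.07, not called by DESeq2 with adjusted p = 0.502), *Socs3* (3.43 ± 0.68), *Junb* (2.94 ± 0.51) and *Hspa1a* (2.69 ± 0.47). Over 26 such genes the summed level was 4197, 6292 and 5418 CPM on 10x and 6925, 11620 and 17820 CPM on Smart-seq2. In neuron-panel cells of the same pools it was 3238 and 5426 CPM on 10x and 5520 and 6086 CPM on Smart-seq2 at E12.5 and E14.5. With batch 5 alone 14 of 20 were called, and without the 10x E12.5 pool 7 of 19, beside 6.05% and 3.18% of all genes. Its part in the other differences was not tested.

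Of the markers of other cell types few could be tested. *Foxp2* was the 1 gene called of 5 mesenchyme markers (-1.66 ± 0.47, adjusted p = 0.0418, and 0.124 by DESeq2). No neuron marker was abundant enough. With edgeR's own filter alone 17 mesenchyme markers were tested, 7 of them higher at E12.5 and 2 higher later, at a median of -0.99. Of 12 neuron markers 4 were higher at E12.5 and 1 higher later. Of all 12205 genes under this filter 668 were higher at E12.5 and 632 higher later. Of 3 blood, endothelial and cartilage markers that passed the limit of 5, 2 were higher at E12.5, beside 1.37% of all genes. *Pecam1*, a gene of endothelium, stood at 249.2, 65.9 and 45.6 CPM on Smart-seq2 (-1.96 ± 0.45, adjusted p = 0.0113) but at 12.0, 1.61 and 12.9 CPM on 10x, and neuron-panel cells of the same Smart-seq2 day had 255.6 CPM. DESeq2 did not call it (adjusted p = 0.136), nor did edgeR with batch 5 alone (-1.48, adjusted p = 0.067). *Col2a1*, the cartilage collagen, stood at 104.6, 496.4 and 0.84 CPM on Smart-seq2 (-2.47 ± 0.52, adjusted p = 0.00503) and turned to 1.96 (adjusted p = 0.146) for E14.5 alone, and DESeq2 did not call it (adjusted p = 0.742).

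**Figure D5:**
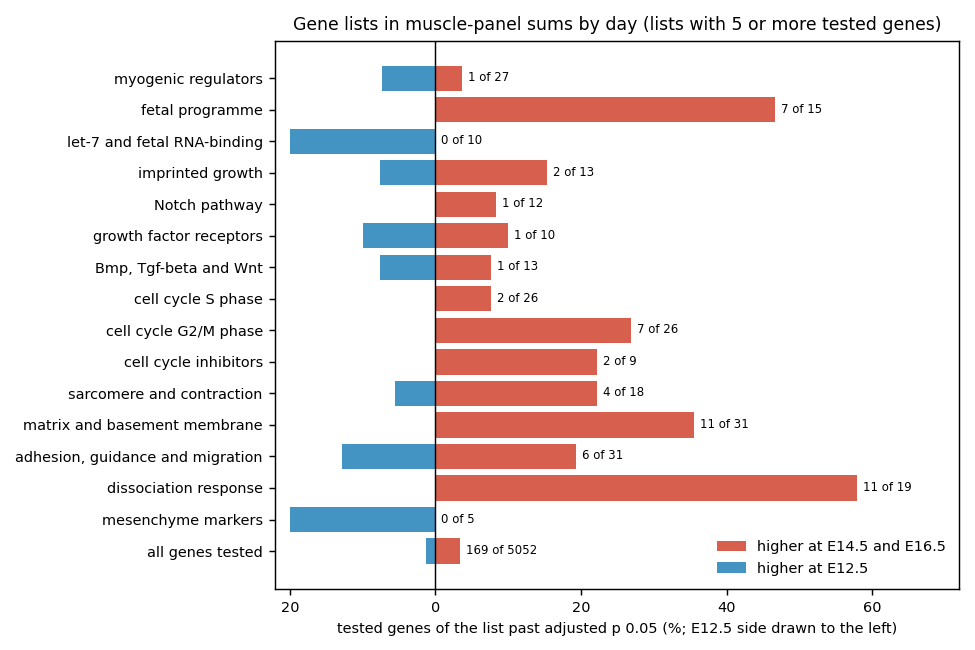
Share of the tested genes of each list called higher later (right) or higher at E12.5 (left), with the count of genes higher later beside each bar, for lists with 5 or more tested genes. Dissociation response (11 of 19), fetal programme (7 of 15) and matrix (11 of 31) genes lie furthest right of the bar for all genes (3.35% of 5052).

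A change that neuron-panel cells of the same pools share cannot be told from a difference between the pools, so the change from E12.5 to E14.5 was compared between the classes. In the Smart-seq2 E12.5 pool the classes differed in batch. Batch 5 held 36 of the 44 muscle-panel cells but 10 of the 99 neuron-panel cells, and the pool term does not remove this. No fit with batch 5 alone was made, as 10 neuron-panel cells are fewer than the 20 asked for. Of 5977 genes tested for the interaction of class and day over 8 sums, 77 passed (1.29%), with the muscle-panel change above the neuron-panel change in 54 (0.903%) and below it in 23 (0.385%). Without the Smart-seq2 E14.5 sums 0 passed with edgeR, with 3.21% of genes at an unadjusted p under 0.05, and without the Smart-seq2 E12.5 sums 0.85% passed, so the calls lean on those pools. On simulated counts this test missed most 4-fold changes, and where no larger change was simulated most of its few calls were false. *Cd24a* fell in muscle-panel sums while it stood at 1264 and 2131 CPM on 10x and at 1332 and 2194 CPM on Smart-seq2 in neuron-panel sums (log2 difference of changes -2.45 ± 0.41, adjusted p = 0.0409). *Cdkn1c* rose in muscle-panel sums and stood at 1587 and 816 CPM and at 761.6 and 129.9 CPM in neuron-panel sums (3.44 ± 0.49, adjusted p = 0.0205). *Crip2* rose more in muscle-panel sums, as neuron-panel sums on Smart-seq2 held 177.9 and 266.6 CPM (3.46 ± 0.60, adjusted p = 0.0449). *Vcam1*, an adhesion molecule that integrins bind, went the other way in neuron-panel sums, from 7.55 to 0 CPM on 10x and from 36.1 to 1.32 CPM on Smart-seq2 (7.88 ± 0.99, adjusted p = 0.0127).

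Several genes of the day comparison were not shown to differ between the classes. *Mn1* stood at 358.7 and 53.7 CPM on Smart-seq2 in neuron-panel sums, a fall much like that in muscle-panel sums (difference -0.15 ± 0.54, adjusted p = 0.95). *Igf2bp1* also went down in neuron-panel sums, from 139.3 to 37.6 and from 320.5 to 71.4 CPM (1.14 ± 0.48, adjusted p = 0.463). For *Efna5* the neuron-panel values were 88.5 and 102.4 CPM and 88.5 and 155.8 CPM (-2.78 ± 0.56, adjusted p = 0.0721). *Erbb3*, *Stra6*, *Itga4* and *Moxd1* were at or below 14.03 CPM in every neuron-panel sum, so their fall has no counterpart there to set it against.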

How the data were processed

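The authors deposited UMI counts per gene and 10x cell from Cell Ranger and, per the labels, expected counts per gene and Smart-seq2 cell from kallisto 0.44.0 and tximport, neither scaled; the build was GRCm38. Bulk libraries were not used, as none is of E12.5. Cells with over 8% mitochondrial counts were left out, and the panel rule was applied to each cell. Members and gene lists were chosen with earlier results of these data known. Doublets among the 10x cells were called with Scrublet in scanpy 1.11.5. Raw counts were summed per class and pool (at least 20 cells; Smart-seq2 sums rounded) on 15147 shared genes and tested with edgeR 4.0.16 in R 4.3.3 (TMM, quasi-likelihood, Benjamini-Hochberg, adjusted p under 0.05). The day model held platform and day (2 residual degrees of freedom, prior 19.3), and the interaction model pool, class and class by day (2, prior 5.58). SE is the absolute log2 fold change over the root of F.

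The fit departs from its written design, which had edgeR's filterByExpr alone. That fit was run first and called 1300 genes by day (10.7%) and 2.77% of genes by interaction. On simulated counts a large part of its calls was false. Limits on average log2 CPM of 3, 4 and 5, robust priors and a newer dispersion method were then tried on simulated and on real counts, and 5 was taken with the real numbers of calls in view. The simulation was changed afterwards as well, with larger folds added and other random seeds. With the limit, false calls by day were fewer but above the level aimed at in part of the simulated draws. In the interaction most 4-fold changes were missed, and where only 2- and 4-fold changes were simulated most of the few calls were false.

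Named genes were the panel genes and 5 muscle regulators (*Myod1*, *Pax7*, *Pax3*, *Myog*, *Myf6*); the 12 largest day changes in each direction with an average log2 CPM of at least 5 and 1 sign in all 4 differences; the 15 largest E12.5 ratios over other cells by the smaller platform, and 8 in each direction against myocyte-panel cells, with at least 30 UMIs; up to 4 called genes per list and direction; and 6 interaction genes in each direction. *Nfic*, *Lama4*, *Lama5*, *Mki67*, *Top2a* and genes given as shares of cells stand outside this rule or were chosen after their values were seen. Alternatives were DESeq2 1.42.0, other filters, stricter members, tied cells, thinned cells (1000 UMIs or 100000 counts), batch 5 alone, single later days, no platform term and each pool left out. Some genes of the lists are not reported here.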

Additional observations from a re-analysis of the deposited data

Results flagged for a closer look

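For 12 genes the change from E12.5 to E14.5 differed between muscle-panel and neuron-panel cells by the interaction test, chosen as the 6 largest differences in each direction among called genes. The differences below are log2 values that depend on sums at or near 0, so they are no fold changes.

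In 6 genes of mitosis neuron-panel sums were at or near 0 at E14.5 while muscle-panel sums were not: *Pbk* (14.52, adjusted p = 0.00314), *Bub1* (12.72, adjusted p = 0.00314), *Aurkb* (12.32, adjusted p = 0.00497), *Spc25* (11.88, adjusted p = 0.0118), *Cenpe* (9.96, adjusted p = 0.00314) and *Ccnb1* (9.91, adjusted p = 0.00831). *Ccnb1*, the mitotic cyclin, stood at 191.3 and 120.3 CPM on 10x and at 150 and 399.9 CPM on Smart-seq2 in muscle-panel sums at E12.5 and E14.5, and at 48.7 and 0 CPM and at 218.7 and 0.35 CPM in neuron-panel sums. *Aurkb*, a kinase of chromosome segregation, stood at 47.8 and 50.9 CPM and at 29.2 and 169.6 CPM in muscle-panel sums, and at 15.1 and 0 CPM and at 38.1 and 0.03 CPM in neuron-panel sums. Like *Ccnb1*, *Bub1* was lower at E14.5 on 10x in muscle-panel sums, at 35.9 and 28.3 CPM. In Smart-seq2 members at E12.5 all 6 genes were higher in batch 5 than in batches 1 and 2. There *Ccnb1* stood at 366.7 and 26.7 CPM and *Aurkb* at 67.2 and 7.63 CPM. *Pbk*, *Cenpe*, *Ccnb1* and *Spc25* lost their calls without the Smart-seq2 E14.5 sums, with values of 16.11, 14.32, 14.89 and 5.66, and *Bub1* and *Aurkb* were too low to be tested there. No gene was called in that fit.

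The other 6 were genes of neuron-panel cells that were at or near 0 in muscle-panel sums of E14.5. They reached the limit on average level largely through the neuron-panel sums, so their p-values say little of a change in the members: *Samd10* (-12.88, adjusted p = 0.0118), *Mab21l2* (-11.16, adjusted p = 0.0139), *Adgrg1* (-9.54, adjusted p = 0.022), *2900011O08Rik* (-9.16, adjusted p = 0.0118), *Spock1* (-7.61, adjusted p = 0.0112) and *Spock3* (-7.27, adjusted p = 0.0153). *Spock3* stood at 94.8 and 2.91 CPM in the muscle-panel sums on Smart-seq2 and at 55.9 and 494.8 CPM in neuron-panel sums. Its E12.5 level lay in few cells, at 145.4 CPM in the 8 members of batches 1 and 2 and 5.76 CPM in the 36 members of batch 5. *Mab21l2* was at 7.23 and 0 CPM in muscle-panel sums and at 357.2 and 361.9 CPM in neuron-panel sums. All 6 lost their calls without the Smart-seq2 E12.5 sums and without the Smart-seq2 E14.5 sums, and *Samd10*, *Mab21l2* and *Adgrg1* were not called by DESeq2.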

How the results depend on the processing

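The day comparison called 4.71% of the genes tested. The share was 9.78% with no filter on low counts, 10.7% with edgeR's own filter alone, and 8.17% and 7.06% with an average log2 CPM of at least 3 or 4. It was 2.30% with a score of at least 1.0 and 1.98% with at least 2 panel genes (neither leaves a 10x E12.5 sum), 2.02% for E14.5 alone, and 0 without the platform term (edgeR, 2.28% at an unadjusted p under 0.05). Leaving out each pool gave 0.0625% to 7.82%. In the day comparison 3.35% of genes were called higher later and 1.37% lower, while the share of calls higher later was 48.6% with edgeR's own filter, 44.3% with no filter, 55.5% at a limit of 3, 61.6% at a limit of 4, 55.7% with thinned cells and 81.2% without the Smart-seq2 E14.5 pool. The interaction called 1.29% of the genes tested. Under the 4 filters in the same order it called 2.70%, 2.77%, 2.00% and 1.68%, with DESeq2 3.71%, with robust priors 2.74%, with a score of at least 1.0 2.89%, with 2 panel genes 3.12% and with thinned cells 7.59%, and leaving out each pool gave 0 to 4.07%. The cause was not tested. Each gene called by day had the same direction under the other filters, DESeq2 (3.52% called), robust priors (5.98%) and the newer dispersion method (5.01%). The 10x share of members moved to 1.67% with a score of at least 1.0, 1.87% with 2 panel genes and 4.62% with tied cells kept. Reversed were *Atp2a1* (-6.81 to 3.44 over the pools left out, with 3.44 without Smart-seq2 E14.5), *Col2a1* (1.96 for E14.5 alone) and, in the interaction, *Spock1* (-10.81 to 3.05, with 3.05 without Smart-seq2 E12.5). No paired analysis was possible because the pools carry no replicate number, although the interaction model compares the classes within each pool. The 83630 UMIs of the 10x E12.5 sum limit what can be seen there, since a gene at 0 may be at up to 35.9 CPM.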

Other observations

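Levels of the panel genes varied between Smart-seq2 plates. Over the 6 plates with at least 5 members, *Msc* ran from 119.1 to 395.6 CPM, *Myf5* from 104.4 to 366.9 CPM (median 188.5), *Cdh15* from 287.3 to 495.1 CPM (337.9) and *Capn6* from 668 to 2568 CPM (1575). Outside the panel *Itm2a* ran from 3385 to 5605 CPM (4322), *Pax7* from 32.7 to 106.8 CPM (57.8), *Pax3* from 49.2 to 321.9 CPM (149.8) and *Myod1* from 0 to 288.1 CPM (186.4). In all, 66 cells on 10x and 37 on Smart-seq2 had a muscle score of at least 0.7 at E12.5 but were not members. Another panel scored higher or, in the 16 tied 10x cells, as high. The early mesenchymal panel was highest in 21 and 16 of these cells and the differentiating-myocyte panel in 14 and 15.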
